A study of Mus musculus with 24 samples.

Results

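The cone opsins and the proteins of the cone light response were followed through 10 mouse genes: Opn1sw, Opn1mw, Arr3, Gnat2, Gnb3, Gngt2, Pde6c, Pde6h, Cnga3 and Cngb3. They were chosen by symbol, through the Ensembl gene identifiers of the count files, and all 10 were found among 46603 annotated genes and 126602 features in all. Their levels were compared over 4 ages of mouse retinal organoids (MROs), which are small stratified retinas grown in culture from mouse embryonic stem cells (mESCs).

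All 24 MROs came from E14Tg2a, a wildtype mESC line. They were grown by the trisection protocol, in which each early organoid is cut into parts. The study's version of this protocol adds the synthetic retinoid EC23 to the culture for some days from the cut on, ending before D20. The labelled treatment of all of them is the solvent water, and the genotype label is Control. The 4 groups were D20, D22, D25 and D30, the day of culture, with 6 individual MROs each from 1 independent experiment, so that the p-values below measure the spread between organoids of 1 differentiation and not between experiments. Ribosomal RNA was removed from the total RNA of each whole organoid before a strand-specific library was sequenced, and 13634846 to 19477108 reads per library (median 15791636) were counted to features. A whole organoid holds many cell types. Fewer cone cells, less RNA per cone cell and a change in reads from other cells cannot be told apart in these values.

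Cones are the photoreceptors of daylight and colour vision, and a mouse retina holds few of them among many rods. Light isomerizes the chromophore of an opsin, the opsin activates the G protein transducin, transducin releases the inhibition of a phosphodiesterase, and the fall in cGMP closes cation channels of the plasma membrane until arrestin quenches the opsin. Cones and rods run this cascade with separate genes for nearly every step. Mouse cones make the short-wavelength opsin encoded by Opn1sw, the medium-wavelength opsin encoded by Opn1mw, or both, and in the developing mouse retina the short-wavelength opsin is made first.

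The promoters of the opsins and of cone arrestin are shown because these 3 genes took different courses over the 10 days between D20 and D30. Each sequence is the 250 bases upstream of a RefSeq transcript start (GRCm38.p6), printed 5′ to 3′ on the strand of the gene, with capitals for each match, on either strand, to TAATC or to AGGTCA. The first is a core letter string of sites bound by the photoreceptor homeodomain factor CRX, and the second is the half-site of many nuclear receptors, a family that holds known regulators of opsin choice. The windows are chr6:29380514-29380763 on the minus strand for Opn1sw, chrX:74127216-74127465 on the plus strand for Opn1mw and chrX:100605247-100605496 on the plus strand for Arr3.
Opn1sw: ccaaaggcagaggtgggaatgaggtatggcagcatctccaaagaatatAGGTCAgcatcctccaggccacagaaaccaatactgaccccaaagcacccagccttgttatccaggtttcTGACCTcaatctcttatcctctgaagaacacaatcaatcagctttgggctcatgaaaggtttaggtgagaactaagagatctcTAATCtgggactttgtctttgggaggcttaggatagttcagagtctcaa
Opn1mw: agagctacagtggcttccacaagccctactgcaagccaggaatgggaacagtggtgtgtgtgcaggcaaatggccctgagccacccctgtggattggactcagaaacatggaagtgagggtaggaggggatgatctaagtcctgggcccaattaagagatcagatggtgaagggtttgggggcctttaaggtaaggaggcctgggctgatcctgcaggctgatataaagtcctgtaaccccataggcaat
Arr3: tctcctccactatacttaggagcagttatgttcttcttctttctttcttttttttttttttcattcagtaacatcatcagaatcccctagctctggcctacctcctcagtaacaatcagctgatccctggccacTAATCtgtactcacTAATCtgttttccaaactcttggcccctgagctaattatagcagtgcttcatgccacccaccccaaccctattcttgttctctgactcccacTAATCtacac
Opn1sw held 1 TAATC, starting 49 bases before the transcript start, and 2 AGGTCA matches, at 202 and 132 bases before it. Arr3 held 3 TAATC matches, at 116, 102 and 10 bases before the start. Opn1mw held neither string and was the only one of the 3 with the TATA box letters TATAAA, 28 bases before the start. TAATC was found in 19.8% of all 32851 promoters of this length in the table, AGGTCA in 14% and TATAAA in 12.4%, so that each string is common, and a match is a description of the letters and not of a bound site. TAATCC, a longer string that contains TAATC, was in none of the 3 windows and in 6.25% of all promoters. Cnga3, Gnat2 and Pde6h also had an entry in the table, and Gnb3, Gngt2, Pde6c and Cngb3 had none.

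Levels are given as normalized CPM, which are reads of a feature over the library total on the usual CPM scale, corrected by the TMM factors of edgeR. Log2 fold changes and adjusted p-values come from edgeR's quasi-likelihood test on the counts of all 24 libraries, with Benjamini-Hochberg adjustment over the 46949 features whose mean normalized count was at least 10, and a gene was called at an adjusted p below 0.01. Of the 10 cone genes 8 passed this filter, and Opn1mw and Pde6h did not, so these 2 are described by their reads. From D20 to D30, 3 of the 8 tested genes rose (Arr3, Gnat2 and Gnb3) against 13.9% of all tested features, and 3 fell (Opn1sw, Gngt2 and Pde6c) against 13.0%. Most tested features are assembled loci, and of the 16253 annotated genes tested 25.1% rose and 16.7% fell. From D25 to D30, 2 fell (Opn1sw and Gngt2) against 1.75% of all features, and 0 rose against 1.76%, with 3 genes at an unadjusted p below 0.05 in either direction by edgeR and by DESeq2. None of the 8 was called from D20 to D22, where 1.62% of features rose and 0.285% fell, nor from D22 to D25, where 3.08% rose and 2.19% fell. At an unadjusted p below 0.05, edgeR and DESeq2 each gave 3 of the 8 genes in the first interval and 2 in the second, and DESeq2 called 0 in either interval after adjustment. With only the 12 libraries of the compared days in the fit, 2 genes (Gnb3 and Gngt2) were called from D20 to D22 and 1 (Opn1sw) from D22 to D25. The median log2 fold change from D20 to D30 was 0.40 over the 8 cone genes, -0.04 over all tested features and 0.10 over the annotated genes tested.

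**Figure D1:**
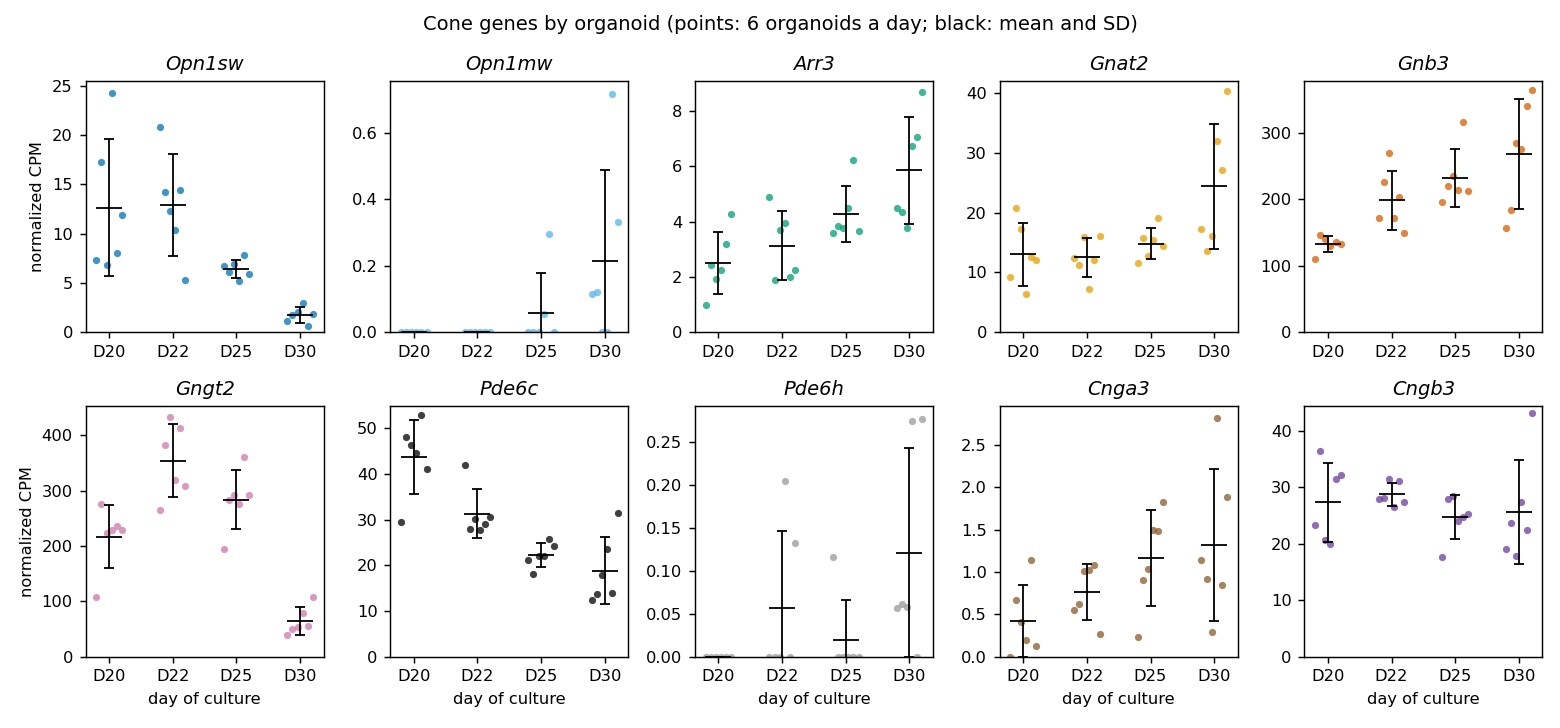
Normalized CPM (vertical axes, each starting at 0) of the 10 cone genes on D20, D22, D25 and D30; points are the 6 organoids of a day, and black marks the mean and SD, with bars that would pass below 0 cut there. Opn1sw, Gngt2 and Pde6c have their lowest means on D30 at 1.71, 64.7 and 18.9. Arr3, Gnat2 and Gnb3 have their highest means on D30 at 5.85, 24.4 and 267.7.

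Opn1sw, the short-wavelength opsin, was high on D20 and D22 and fell to its lowest level on D30. On D20 the 6 organoids ranged from 6.81 to 24.3 normalized CPM with a median of 9.97, and on D22 from 5.26 to 20.8 with a median of 13.2. On D25 they ranged from 5.15 to 7.79 with a median of 6.43. On D30 they ranged from 0.588 to 2.96 with a median of 1.80. Every D30 organoid thus lay below every younger one, while the D20, D22 and D25 groups overlapped. The means were 12.6 ± 6.94 on D20, 12.9 ± 5.14 on D22, 6.42 ± 0.917 on D25 and 1.71 ± 0.817 on D30 (SD, n = 6 each), which is 7.38-fold lower on D30 than on D20.

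The fall of Opn1sw from D25 to D30 was -1.91 on the log2 scale (SE 0.34, edgeR adjusted p = 0.000307), and that from D20 to D30 was -2.88 (SE 0.34, adjusted p = 5.24e-08). The difference between D25 and D22 was -1.003 (SE 0.31, adjusted p = 0.0314, and 0.00791 in the fit of these 2 days alone). Between D22 and D20 it was 0.03 (SE 0.30, adjusted p = 0.975). The coefficient of variation among the organoids of a day was 55.02% on D20, 39.9% on D22, 14.3% on D25 and 47.8% on D30. In the gene annotation (GRCm38, 6:29376671-29388468, minus strand) 397 of the 2557 exon bases of Opn1sw, or 15.5%, overlap exons of Calu on the other strand, and whether the counting used strand is not given in the sources used here. Calu stood at 382.0 ± 22.1 normalized CPM on D20 and 363 ± 48.5 on D30 (SD, n = 6 each).

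Opn1mw, the medium-wavelength opsin (X:74127464-74150760, plus strand), was counted at a few reads per library at most. None of the 12 libraries of D20 and D22 held a read, 3 reads being 0.166 to 0.216 CPM in a single library. On D25, 2 organoids held 1 and 5 reads, and 4 held none. On D30, 4 organoids held 2, 2, 11 and 6 reads, and 2 held none. The 21 reads of D30, pooled over 6 libraries, made 0.209 normalized CPM. This was 6.24-fold the 0.0334 that 3 reads over the 6 D20 libraries would make. Without D30 replicate 5, which held 11 of the 21 reads, the pooled level was 0.117, or 3.51-fold. These folds take the D30 reads as exact and leave out their counting error and the spread between organoids. The groups overlap, since organoids without a read were found on all 4 days. In the fit without a filter on low counts, the adjusted p for D30 against D20 was 0.0268 by edgeR and did not pass 0.01.

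Among the pooled opsin reads, the share of Opn1mw was highest on D30. This share depends on the reads of both genes, and Opn1sw had its fewest reads on that day. Opn1mw supplied 0 of the opsin reads beside 1128 of Opn1sw on D20, which allows a share of up to 0.266% by a limit of 3 reads (exact upper limit 0.326%), and 0 beside 1155 on D22, which allows up to 0.26% (exact upper limit 0.319%). On D25 there were 6 beside 637, or 0.933% (exact binomial 95% interval 0.343 to 2.02%). On D30 there were 21 beside 168, or 11.1% (exact interval 7.01 to 16.5%). Of the 21 reads on D30, 11 came from replicate 5, which held only 9 reads of Opn1sw, and without it the share was 10 beside 159, or 5.92% (exact interval 2.87 to 10.6%). These intervals and limits cover counting error over pooled reads only, not the spread between organoids.

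Arr3, the cone arrestin that quenches active cone opsin (X:100605497-100618493, plus strand), rose from D20 to D30. The lowest, median and highest organoid were at 0.979, 2.33 and 4.29 normalized CPM on D20 and at 1.88, 2.99 and 4.90 on D22. They were at 3.59, 3.81 and 6.24 on D25 and at 3.77, 5.63 and 8.70 on D30. Neighbouring days overlapped, and 1 D20 organoid lay above the lowest of D30. The means were 2.51 ± 1.13, 3.12 ± 1.24, 4.27 ± 1.02 and 5.85 ± 1.94 from D20 to D30 (SD, n = 6 each). The rise from D20 to D30 was 1.22 on the log2 scale (SE 0.30, edgeR adjusted p = 0.00158), whereas the single steps of 0.32, 0.45 and 0.45 had edgeR adjusted p-values of 0.649, 0.381 and 0.458. Arr3 and Opn1sw, made in the same cells in the mature retina, were thus called in opposite directions over the same 10 days.

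The 3 transducin subunits of cones did not move together. Gnat2, the alpha subunit that carries the signal from opsin to phosphodiesterase (3:108092789-108101432, plus strand), was higher on D30 than on D20. Its lowest, median and highest organoid were at 6.33, 12.3 and 20.8 normalized CPM on D20, at 7.18, 12.3 and 16.1 on D22, and at 11.6, 14.9 and 19.1 on D25. On D30 they were at 13.6, 22.2 and 40.4, where 3 organoids (27.2, 31.9 and 40.4) lay above all others of the series and 3 (13.6, 16.2 and 17.2) within the range of D20. The means were 13.1 ± 5.27, 12.5 ± 3.31, 14.8 ± 2.60 and 24.4 ± 10.5 (SD, n = 6 each), which is 1.87-fold higher on D30 than on D20.

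The rise of Gnat2 from D20 to D30 was 0.90 on the log2 scale (SE 0.25, edgeR adjusted p = 0.00499). This was the only one of the 6 calls that leaving out a library ended. It was lost, with edgeR adjusted p-values of 0.0105 to 0.0235 and log2 fold changes of 0.70 to 0.89, in 7 of the 12 fits that left out 1 library (D20 replicates 1, 4, 5 and 6, and D30 replicates 4, 5 and 6), and in the fit of D20 and D30 alone, where the edgeR adjusted p was 0.0178. The largest single step was 0.72 from D25 to D30 (SE 0.25, adjusted p = 0.0859).

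Gnb3, the beta subunit (6:124834240-124840275, minus strand), rose from D20 to D30 and stood above D20 in every organoid from D22 on. The organoids ranged from 109.6 to 146.6 normalized CPM on D20 with a median of 134.6, and from 148.6 to 269 on D22 with a median of 187.6. They ranged from 195.2 to 316.6 on D25 with a median of 216.5 and from 156.7 to 365 on D30 with a median of 280.1. The 3 later groups overlapped each other. The means were 132.5 ± 12.7, 198 ± 44.0, 232 ± 43.4 and 268 ± 82.8 (SD, n = 6 each). The rise from D20 to D30 was 1.01 on the log2 scale (SE 0.16, edgeR adjusted p = 8.02e-06), and the difference between D22 and D20 was 0.58 (SE 0.16, adjusted p = 0.0299, and 0.00358 in the fit of these 2 days alone).

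Gnb3 is also the beta subunit of the G protein of ON bipolar cells, so its reads are not those of cones alone. The 6 ON bipolar markers (Grm6, Trpm1, Pcp2, Gng13, Prkca and Cabp5) summed to 113.7 to 145.4 normalized CPM on D20, 114.4 to 152.3 on D22, 138.3 to 164.6 on D25 and 223.5 to 334.3 on D30. Of these 6, 4 rose from D20 to D30 and 1 fell, with a median log2 fold change of 3.26. Grm6, the glutamate receptor of ON bipolar cells, rose by 7.61 on the log2 scale and Cabp5, a calcium-binding protein of bipolar cells, by 5.09, while Pcp2, a regulator of G protein signalling, fell by 1.44. Most of the D20 sum was Pcp2, with a mean of 96.4 normalized CPM on D20 and 35.6 on D30. Grm6 had a mean of 0.0575 on D20 and 12.6 on D30. The part of ON bipolar cells in the Gnb3 values was not tested.

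Gngt2, the gamma subunit (11:95837216-95845734, plus strand), was highest on D22 and fell after D25. The organoids ranged from 108.0 to 276.3 normalized CPM on D20 with a median of 229, from 265.3 to 433.5 on D22 with a median of 350.9, and from 194.1 to 361.2 on D25 with a median of 287.4. On D30 they ranged from 39.5 to 108.8 with a median of 55.1, below every organoid of D22 and D25, and above the lowest D20 organoid in 1 case. The means were 217 ± 56.8, 354 ± 66.1, 283 ± 53.4 and 64.7 ± 25.2 (SD, n = 6 each), so that D30 was 3.35-fold lower than D20 and 4.37-fold lower than D25.

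The fall of Gngt2 from D25 to D30 was -2.13 on the log2 scale (SE 0.20, edgeR adjusted p = 1.76e-08), and the net change from D20 to D30 was -1.74 (SE 0.20, adjusted p = 3.33e-08). The earlier difference of 0.71 between D22 and D20 (SE 0.20, edgeR adjusted p = 0.0299) passed 0.01 in the fit of these days alone and in the fit without a filter on low counts. Of the exon bases of Gngt2, 234 of 1877, or 12.5%, overlap Abi3 on the other strand. Abi3 was at 1.26 ± 0.758 normalized CPM on D20 and 0.181 ± 0.142 on D30 (SD, n = 6 each), with far fewer reads than Gngt2 on each day.

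**Figure D2:**
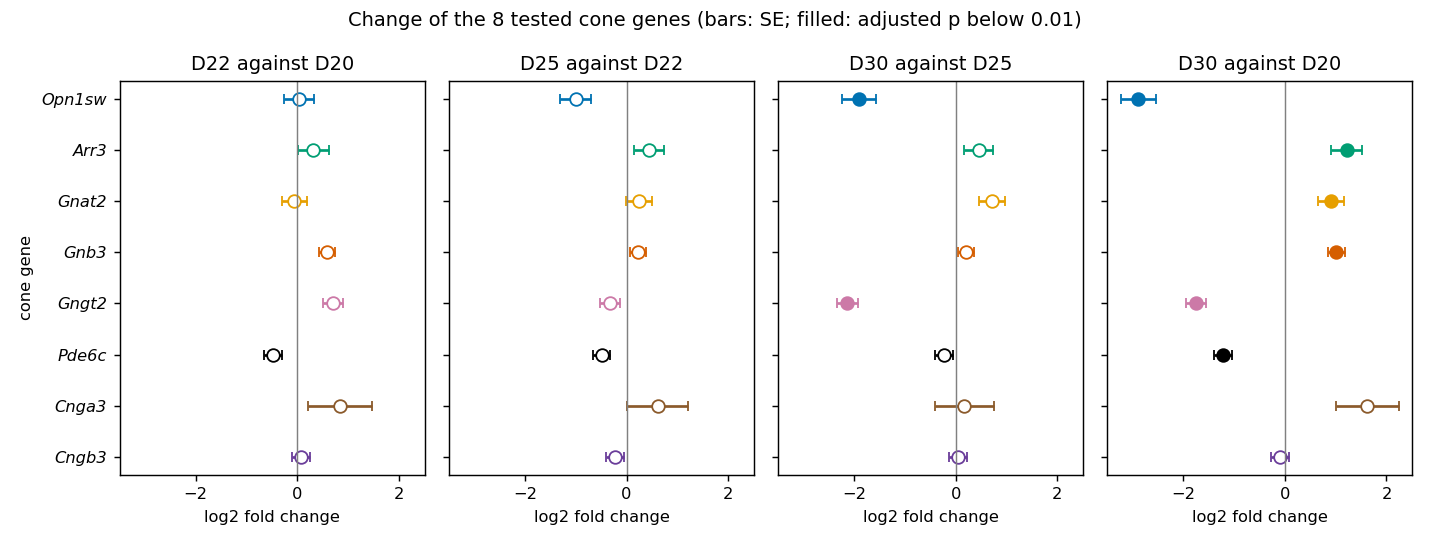
Log2 fold changes (horizontal axis, with SE bars) of the 8 tested cone genes in 4 comparisons; filled points have an edgeR adjusted p below 0.01. No point is filled from D20 to D22 or from D22 to D25, Opn1sw (-1.91) and Gngt2 (-2.13) are filled from D25 to D30, and 6 genes are filled from D20 to D30, 3 on each side of 0.

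Pde6c, the catalytic subunit of the cone phosphodiesterase that breaks down cGMP (19:38132781-38183958, plus strand), fell from D20 to D30 and had a lower mean on each later day. Its lowest, median and highest organoid were at 29.4, 45.5 and 52.9 normalized CPM on D20. The means were 43.7 ± 8.04 on D20, 31.3 ± 5.39 on D22, 22.3 ± 2.58 on D25 and 18.9 ± 7.35 on D30 (SD, n = 6 each), 2.32-fold lower on D30 than on D20. Every D25 organoid lay below every organoid of D20 and D22, whereas on D30 the range of 12.5 to 31.4 overlapped all earlier days. The change from D20 to D30 was -1.21 on the log2 scale (SE 0.18, edgeR adjusted p = 2.29e-06), and the 3 steps of -0.48, -0.49 and -0.24 had edgeR adjusted p-values of 0.117, 0.0683 and 0.550.

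Pde6h, the small inhibitory subunit that holds the cone phosphodiesterase in check (6:136923832-136968865, plus strand), was close to absent from the counts. It had 0 reads over the 6 organoids of D20, 5 on D22 (3 and 2 in 2 organoids), 2 on D25 (in 1 organoid) and 12 on D30 (1, 1, 1, 4, 0 and 5). The 12 reads of D30 made 0.119 normalized CPM, at least 3.57-fold higher than 3 reads over the 6 D20 libraries would make, and the adjusted p for D30 against D20 in the edgeR fit without a filter was 0.0408. The catalytic and inhibitory subunits of the enzyme were thus counted at very unequal levels in the same organoids, on D30 at a mean of 6.35 normalized CPM per kb of exon for Pde6c and 0.0155 for Pde6h. The annotated exons of Pde6h sum to 7846 bases, of which 136, or 1.73%, overlap Arhgdib.

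The channel subunits behaved differently again. Cnga3, the subunit that can form a channel by itself (1:37214434-37263384, plus strand), was low, with a mean of 0.425 ± 0.422 normalized CPM on D20, 0.761 ± 0.329 on D22, 1.16 ± 0.567 on D25 and 1.32 ± 0.900 on D30 (SD, n = 6 each). Its reads per organoid ranged from 0 to 16 on D20, from 4 to 15 on D22, from 4 to 30 on D25 and from 5 to 41 on D30, and all groups overlapped. The log2 fold change from D20 to D30 of 1.62 (SE 0.62, edgeR adjusted p = 0.0391) was not called, though it had the largest size among the 4 positive ones, and it passed only when D20 replicate 5 was left out (2.19, edgeR adjusted p = 0.00901). Cngb3, the modulatory subunit (4:19280850-19510623, plus strand), had similar means on the 4 days, at 27.3 ± 6.94, 28.8 ± 2.03, 24.7 ± 3.90 and 25.6 ± 9.24 normalized CPM (SD, n = 6 each). Its log2 fold change from D20 to D30 was -0.09 (SE 0.17, edgeR adjusted p = 0.711), and all 4 groups overlapped, with the highest organoid of all (43.1) and the second lowest (17.9) both on D30.

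To compare genes with each other, the normalized CPM was divided by the merged exon length in kb. On D20 the order of the mean levels per kb was Gngt2 (115.6), Gnb3 (50.4), Pde6c (14.7), Cngb3 (5.81), Opn1sw (4.93), Gnat2 (4.36), Arr3 (1.07) and Cnga3 (0.107), with Opn1mw and Pde6h at 0. The ranges of Cngb3 and Opn1sw, and of Opn1sw and Gnat2, overlapped, and those of the other neighbours from Gngt2 down to Cnga3 did not. On D30 the order was Gnb3 (101.7), Gngt2 (34.5), Gnat2 (8.15), Pde6c (6.35), Cngb3 (5.44), Arr3 (2.49), Opn1sw (0.669), Cnga3 (0.333), Opn1mw (0.137) and Pde6h (0.0155). Here the ranges overlapped from Gnat2 through Cngb3 and again from Opn1sw to Pde6h. Between D20 and D30, Opn1sw thus went from the middle of the order to a place below Arr3, and Gnat2 from below Cngb3 to above it, the latter within overlapping ranges. These lengths include all annotated exons of a gene, so exons that a gene does not use in these organoids would lower its level per kb, and exon use was not tested.

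**Figure D3:**
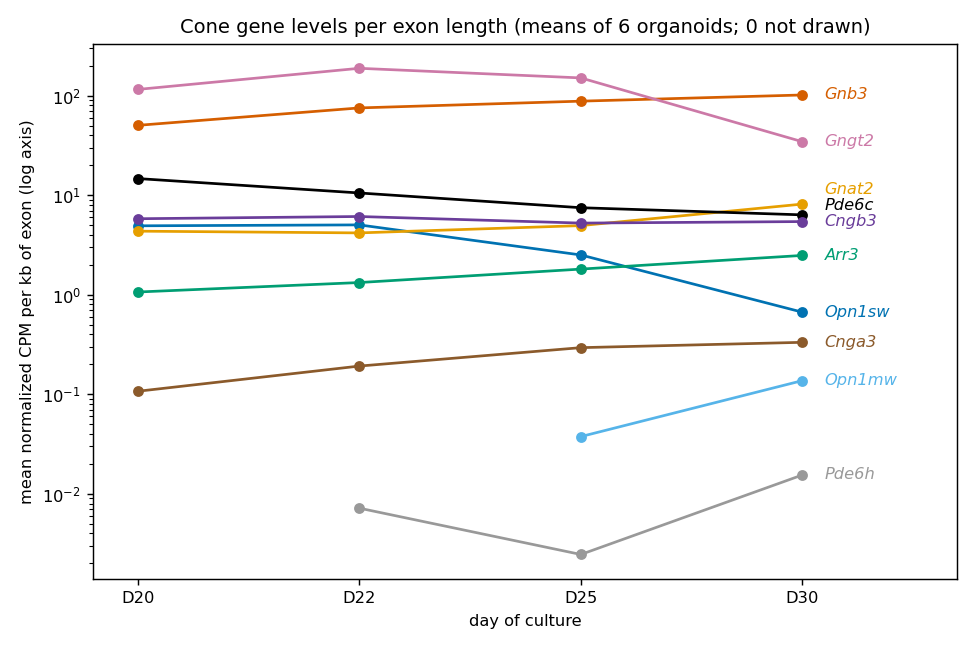
Mean normalized CPM per kb of merged exon (logarithmic vertical axis) of the 10 cone genes by day of culture, each point being the mean of 6 organoids; means of 0 are not drawn. The lines of Gngt2 (34.5 on D30) and Gnb3 (101.7 on D30) cross between D25 and D30, and Opn1sw goes from 4.93 on D20 to 0.669 on D30, below Arr3 at 2.49.

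Rods use their own set of genes for the same steps, and both sets can be read within the same organoid. The 9 rod counterparts, fixed by role, all rose from D20 to D30 with a median log2 fold change of 5.20, the largest rises being those of Gnat1 (10.04), the alpha subunit of rod transducin, and Pde6a (7.84), a catalytic subunit of the rod phosphodiesterase. Their summed level was 733.2 to 1606 normalized CPM on D20 and 7157 to 14480 on D30, while that of the 10 cone genes was 287.8 to 548.5 on D20, 539.4 to 797.1 on D22, 450.4 to 763.1 on D25 and 251.9 to 601.8 on D30. The sums of the cone genes on D20 and D30 thus overlapped, and those of the rod genes did not. Gngt2 and Gnb3 had the highest CPM of the 10 cone genes and moved in opposite directions. Their means were 216.9 and 132.5 on D20, and 64.7 and 267.7 on D30. The overlap of the sums therefore does not show that the single cone genes were steady.

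For each of 8 pairs of a cone and a rod gene of the same role, the log2 ratio of (CPM + 0.5) was taken in each organoid and compared between D20 and D30 by a two-sided exact permutation test. The ratio fell in all 8 pairs, each with an exact p of 0.0021645, the same after adjustment over the 8 pairs. This is the smallest p that the 924 splits of 6 against 6 allow. For Pde6h over Pde6g this p reflects Pde6g and says nothing about Pde6h, which lay below the 0.5 CPM added in every organoid. The change was -7.69 for Gnat2 over Gnat1, -7.02 for Cngb3 over Cngb1 and -6.26 for Cnga3 over Cnga1. It was -4.86 for Pde6h over Pde6g and -4.65 for Gngt2 over Gngt1. It was -3.08 for Pde6c over Pde6b, -2.27 for Arr3 over Sag (rod arrestin) and -1.49 for Gnb3 over Gnb1, a beta subunit that many other cells also make. The rod phosphodiesterase has a further catalytic subunit, Pde6a, and the ratio of Pde6c over Pde6a changed by -8.63, so the rod gene chosen decides the size of that change. A lower ratio does not mean that the cone gene itself fell. Over the same days Arr3, Gnat2 and Gnb3 were called as rising, Cnga3 and Cngb3 were not called, and Gngt2 and Pde6c were called as falling.

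Where the ratio stood differed from pair to pair. Gnat2 over Gnat1 was 4.17 ± 1.04 on D20, 3.59 ± 0.72 on D22, 0.63 ± 0.47 on D25 and -3.52 ± 0.70 on D30 (SD, n = 6 each), so the cone alpha subunit had more CPM than the rod one in every organoid of the first 3 days and less in every organoid of D30. Gnat1 itself went from 0.247 ± 0.306 to 269 ± 50.0 normalized CPM. Cngb3 over Cngb1 was above 0 in all 6 organoids of D20, below 0 in 2 of 6 on D22 (mean 0.28 ± 1.07) and below 0 in all 6 on D25 (-2.55 ± 0.31). Gngt2 and Gngt1 were near equal in CPM on D20 (-0.10 ± 0.25) and far apart on D30 (-4.75 ± 0.32). In the Pde6h pair the change is almost wholly that of Pde6g, 3.65 ± 1.95 normalized CPM on D20 and 134.0 ± 29.3 on D30, since Pde6h stayed near 0. Where a gene lies near or below the 0.5 CPM added, as Pde6h, Gnat1 on D20 and Cnga3 on D20 do, the size of the change depends on it: for Gnat2 over Gnat1 it was -6.11 with 2 CPM added and -9.13 as the difference of the fitted fold changes, and for Cnga3 over Cnga1 -6.18 and -5.515. The ratios are of CPM and not per kb, so their size compares days and not the 2 genes of a pair.

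**Figure D4:**
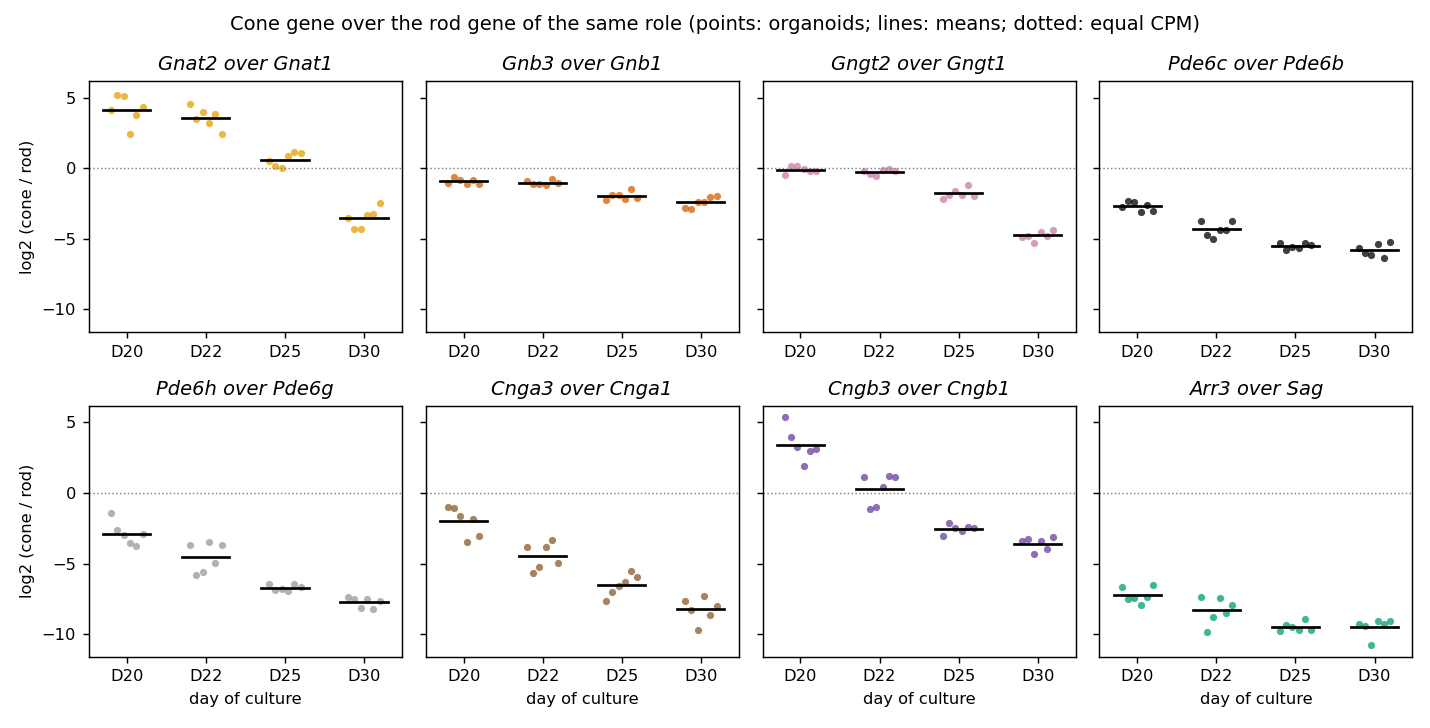
Log2 of cone over rod CPM, each with 0.5 added, for 8 pairs of genes of the same role (vertical axis) by day of culture; points are organoids, black lines means of 6, and the dotted line equal CPM. All pairs are lower on D30 than on D20, Gnat2 over Gnat1 going from a mean of 4.17 to -3.52 and Gnb3 over Gnb1 from -0.92 to -2.41.

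Genes that shut off and reset the light response were listed for cones and rods together, and 9 of the 10 listed were tested. Some of them may act mainly in rods or mainly in cones, and which cells supplied their reads was not tested. All 9 rose from D20 to D30, with a median of 3.23 on the log2 scale, the largest rises being those of Gucy2f (11.12), a photoreceptor guanylate cyclase, and Rcvrn (7.38), the calcium sensor recoverin. Gucy2f had 1 read in all over the 6 D20 libraries and a mean of 42.9 normalized CPM on D30. The size of its rise thus rests on a D20 level near 0. Of the 5 pan-photoreceptor markers 4 rose, with a median of 3.48, Rcvrn again and Prph2 (3.51), a protein of the outer segment disc rim, being the largest. Crx, the homeodomain factor of all photoreceptors, was 0.26 higher on the log2 scale without being called (SE 0.10, edgeR adjusted p = 0.0361). The 3 cone genes that fell did so in the same organoids.

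Of the 13 regulators of cone fate and opsin choice, 3 rose and 4 fell from D20 to D30, with a median log2 fold change of -0.09. Of the annotated genes tested, 25.1% rose and 16.7% fell, so that the share of regulators that rose was close to that of annotated genes. The share that fell was above it, in a short list that was not tested as a set. Pias3, a SUMO ligase that acts on photoreceptor gene choice, rose by 0.97 (SE 0.13, edgeR adjusted p = 3.83e-07) and Rora, an orphan nuclear receptor, by 0.44 (SE 0.10, adjusted p = 0.000389). Onecut1, a factor of early cone and horizontal cell precursors, fell by 4.85 (SE 0.33, edgeR adjusted p = 7.82e-13), from 21.9 ± 5.36 normalized CPM on D20 to 0.741 ± 0.314 on D30 (SD, n = 6 each). Rxrg, the retinoid X receptor of cones, which in the mouse retina holds back Opn1sw, fell by 2.08 (SE 0.23, edgeR adjusted p = 1.33e-08). Rxrg stood at 11.3 ± 3.93 normalized CPM on D20, 12.5 ± 2.58 on D22, 10.6 ± 1.00 on D25 and 2.68 ± 0.764 on D30 (SD, n = 6 each). Its lowest mean was on D30, as for the cone genes Opn1sw, Gngt2 and Pde6c. The same held for Onecut1, Rorb, Otx2, Nr2f2 and Neurod1 of this list. Rorb and Otx2 were also called as falling, by 1.63 (SE 0.09, edgeR adjusted p = 8.76e-15) and by 1.52 (SE 0.11, adjusted p = 1.32e-12). Thrb, the thyroid hormone receptor gene needed for Opn1mw, rose by 0.44 (SE 0.12, edgeR adjusted p = 0.0035). The count of Thrb is of all its transcripts, including those of other cells. Thrb, Crx, Rorb, Otx2, Nr2f2 and Neurod1 were named after their values were seen.

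Markers of other retinal cells moved over the same days. As background for these counts and those of the lists above, 25.1% of the annotated genes tested rose from D20 to D30 and 16.7% fell. The amacrine and pigment epithelium lists are too short to set their single calls apart from that share. Of 6 Müller glia markers 5 rose from D20 to D30 (median 2.34), with Aqp4 (4.05) and Slc1a3 (3.07) the largest, and their sum was 589 to 798.7 normalized CPM on D20 and 1273 to 4418 on D30. Of 4 ganglion cell markers 3 fell (median -2.62), Sncg by 4.55 and Pou4f2 by 3.80. Nefl went the other way without being called, with a mean of 83.0 normalized CPM on D20 and 149.5 on D30. The sum of the 4 was 107.8 to 199.4 normalized CPM on D20 and 49.5 to 251.4 on D30. Of 3 amacrine markers 1 rose, Gad1 by 1.88, and their sum was 40.8 to 81.4 normalized CPM on D20 and 62.4 to 134.4 on D30. Of 5 pigment epithelium markers 2 were tested and 1 rose, Mitf by 1.34, and the sum of the 5 was 4.95 to 18.5 normalized CPM on D20 and 14.9 to 40.01 on D30, with Rpe65 at 0 in all D20 organoids and at 0.1003 ± 0.0908 on D30 (SD, n = 6). CPM are shares of a total, and the part of these other cells in the cone values was not tested.

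Organoids of the same day also differed from each other in their cone genes. After subtraction of the day means, the log2 levels of the 8 tested genes had a median Pearson r of 0.485 over their 28 pairs (24 libraries), 27 being positive and 12 above 0.5. The highest was 0.741 between Gnb3 and Gngt2, and the lowest -0.118 between Opn1sw and Gnat2. Opn1sw had no r above 0.5 with any other member, its highest being with Pde6c. All points of a library share its depth and its mix of cells, and the correlations are given as a description without a test.

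**Figure D5:**
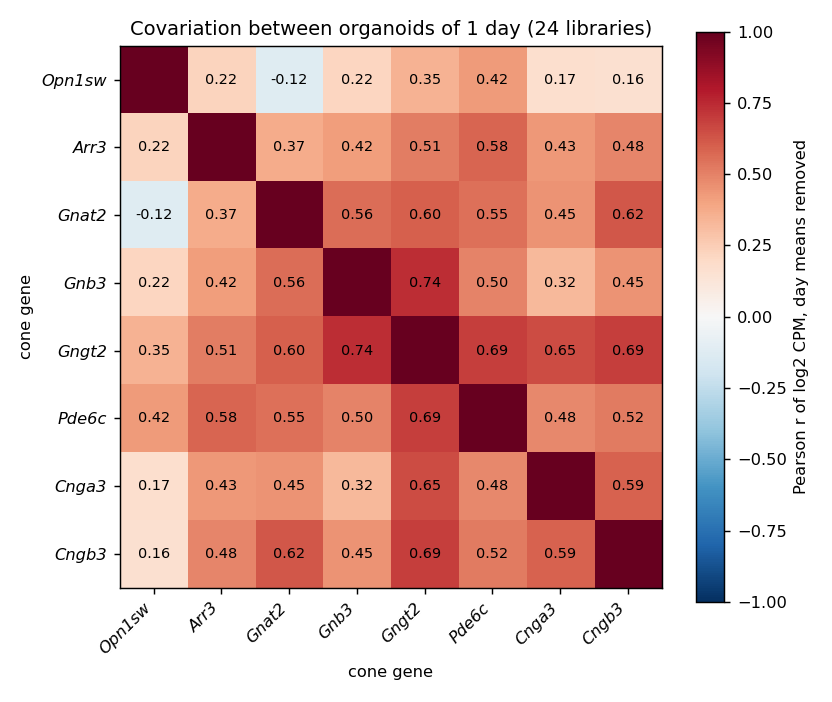
Pearson r between the 8 tested cone genes over 24 libraries, computed on log2 normalized CPM after removal of the day means, on a colour scale from -1 to 1. Gngt2 and Gnb3 have the highest r (0.741), and the row of Opn1sw is the palest, down to -0.118 with Gnat2.

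Over all 10890 annotated genes with a mean count of at least 100, those most like Opn1sw by this measure were Vat1l (r = 0.697), Atg4c (0.693), Gm16973 (0.689), Mpped2 (0.639) and Gpr137c (0.624), where 1 in 100 genes lay above 0.449. They were 0.24 to 2.46 from D20 to D30, above 0 in each, unlike that of Opn1sw. For Arr3 they were Rpain (0.767), Ppox (0.697), Pde6d (0.678), Nxnl2 (0.677) and Yif1a (0.660), beside a 99th percentile of 0.501. Pde6d encodes a chaperone that carries lipid-bearing proteins to the outer segment, and Nxnl2 a relative of the rod-derived cone viability factor. No function is given here for the other genes listed, and a shared theme was not tested. For Gnat2 they were Creb3 (0.754), Gtf2f2 (0.732), Mbd2 (0.719), Calcoco1 (0.715) and Tomm7 (0.704), beside a 99th percentile of 0.563. Opn1mw was below the filter and was not compared in this way.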

How the data were processed

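Total RNA of 24 single MROs (6 each at D20, D22, D25 and D30, grouped by title) was depleted of ribosomal RNA and sequenced as strand-specific libraries. The authors trimmed reads with cutadapt 1.5, aligned them to GRCm38 (mm10) with HISAT2, assembled transcripts with StringTie 1.3.3 and counted reads per feature with HTSeq 0.6.1, as the submitters' processing notes and the study's methods give it, and deposited raw counts for each library. The strand setting of the counting is not given in the sources used here. The deposited counts cover 46603 annotated genes and 79999 assembled loci, and the summary lines of HTSeq were left out; reads that HTSeq called ambiguous were 0.814 to 1.18% of its total. Totals of 13634846 to 19477108 counted reads put 3 reads at 0.166 to 0.216 CPM. No 2 libraries of a day agreed within sampling noise.

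The main test was edgeR 4.0.16 (R 4.3.3), with TMM factors, a quasi-likelihood fit of all 24 libraries, a mean normalized count of at least 10 and Benjamini-Hochberg adjustment over 46949 features at 0.01; it was checked on simulated data. DESeq2 1.42.0, its size factors, other filters, annotated genes alone, the replicate number as a block, the compared days alone and leaving out each library were tried. Log2 ratios of cone over rod CPM, with 0.5 CPM added, were compared by exact permutation (scipy 1.17.1), with 2 CPM and raw library totals as alternatives. Exon lengths and overlaps came from GENCODE M21 on GRCm38, which may differ from the annotation release the authors counted with; the notes also list GRCh38 (hg38), not used here. Promoter sequences came from RefSeq (GRCm38.p6). All cone genes are named. Of each other list, the 2 largest rises and 2 largest falls past 0.01 from D20 to D30 are named, and the rod gene of each pair, and for Opn1sw, Opn1mw, Arr3 and Gnat2, where tested, the 5 annotated genes with the highest day-centred r. The genes and lists, and the motif letters, were chosen with earlier results of these data or the sequences known. No protein sequence was used here.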

Additional observations from a re-analysis of the deposited data

Results flagged for a closer look

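In 7 of 53 groups of 6 organoids, the highest or the lowest organoid stood apart from the others by more than Dixon's 95% limit for 6 values. Chance alone marks about 5% of groups where values follow a normal distribution. That rate does not hold for groups mostly at 0 reads, such as Opn1mw and Pde6h on D25. Groups that share a gene or a library are also not independent, so the 7 are listed without a comparison with that rate. On D25, replicate 5 was the highest for 3 genes: Opn1mw at 0.297 normalized CPM (median of the day 0), Arr3 at 6.24 (median 3.81) and Gnb3 at 316.6 (median 216.5). Replicate 1 stood apart for 3 genes on different days: Gngt2 on D20 was lowest at 108.0 normalized CPM (median 229.1), Pde6c on D22 was highest at 42.05 (median 29.63), and Pde6h on D25 was highest at 0.1158, from 2 reads (median 0). The log2 ratio of Arr3 over Sag was lowest in D30 replicate 3 at -10.81 (median -9.30), the organoid with the highest level of Sag on that day.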

How the results depend on the processing

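From D25 to D30, Opn1sw and Gngt2 were called in each of the 7 other settings, and all 8 cone to rod ratios passed under the 3 other settings tried for them. From D20 to D30 the same 6 genes were called in 6 of the 7 other settings, and 5 in the fit of the compared days alone, without Gnat2. From D20 to D22 the count of called cone genes was 0 and became 2 without a filter on low counts (Gnb3 and Gngt2), 2 in the fit of the compared days alone (the same genes) and 1 with the replicate block (Gngt2). From D22 to D25 it was 0 and became 1 in the fit of the compared days alone (Opn1sw). The cause was not tested. Leaving out D30 replicate 5 for Opn1mw, Pde6a in place of Pde6b and the fitted differences for the ratios were added after seeing the data. Over all features, DESeq2 called 1605 from D20 to D22 where edgeR called 894, and with annotated genes alone, a smaller set, 7322 were called from D20 to D30 in place of 12592.

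The replicate numbers did not pair the organoids: after removal of the day means, the 36 pairs of libraries with the same number had a median r of 0.0102, from -0.0833 to 0.214, so the block is an alternative only, and it left the other counts of called cone genes as they were. When each library was left out in turn, the counts stayed at 0, 0 and 2 for the 3 steps, ranged from 5 to 6 from D20 to D30, and stayed at 8 for the ratios. Only uncalled differences near 0 changed sign: Opn1sw from D20 to D22 ranged from -0.16 to 0.32 on the log2 scale, Gnat2 from -0.20 to 0.13 and Cngb3 from -0.0025 to 0.17; from D25 to D30 Cnga3 ranged from -0.19 to 0.39 and Cngb3 from -0.16 to 0.15; and from D20 to D30 Cngb3 ranged from -0.31 to 0.0036. Depth limits Opn1mw, Pde6h and Cnga3, which had at most 11, 5 and 41 reads in any library, and the single experiment leaves the spread between differentiations unmeasured.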
